A study of Mus musculus with 20 samples.

Results

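Scrt1 and Scrt2 (Scratch family) and Insm1 and Insm2 (insulinoma-associated family) are 4 genes of neuronal zinc finger transcriptional repressors, out of 19888 genes with a named 3′UTR in the RIP-seq and 23781 genes in the mRNA-seq. They were chosen from their measured values: Scrt2 and Insm1 stood near the top of the enrichment in AGO2 binding, so that this enrichment is given below as a description and without a test. Scratch proteins belong to the Snail group, bind E-box sequences and are found almost only in neurons, where they are known for the onset of migration of newborn neurons and for the repression of genes that bHLH activators switch on. Insm1 is a repressor of neuronal and neuroendocrine progenitors that recruits the LSD1-CoREST corepressor complex through an N-terminal SNAG-like domain. Insm2 is its less studied paralogue. A miRNA guides AGO2, the core protein of the RNA-induced silencing complex (RISC), to sites in 3′UTRs that pair with its seed, bases 2 to 8, and a transcript held in this complex is usually destabilised or translated less.

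In the RIP-seq, polyadenylated RNA was sequenced after precipitation with an antibody against GFP from hippocampal lysates of adult C57BL/6 mice. The 4 groups of 2 libraries each were sham-injected mice, in which there is no GFP-AGO2, and mice given AAV5 vectors in which the synapsin promoter drives GFP-AGO2 together with a sponge. The sponge is directed against miR-292 in the control group (miR292sp), against miR-124 in miR124sp and against miR-125 in miR125sp. Such a sponge is a transcript with many imperfect binding sites for a miRNA that sequesters it. The promoter limits the tagged AGO2 to neurons, AGO2 is supplied in addition to that of the cell, and the lysate of 2 hippocampi was pooled for each library. The mRNA-seq measured the whole hippocampus, injected and uninjected cells alike, in 12 single mice of the same strain given AAV5 vectors with the synapsin promoter and no AGO2, as 3 GFP.miR124sp mice against 3 GFP mice and 3 GFP.miR125sp mice against 3 other GFP mice. Total counts were 2417942 to 5072501 per RIP library and 6950522 to 27833176 per mouse in the mRNA-seq. A list of 10 neuronal markers held 0.709% to 0.833% of the RIP counts and 0.454% to 0.529% of the mRNA counts. Snap25 and Camk2a were counted in every library, while detection of others in the list was uneven. Syt1 was at 0 in all 8 RIP libraries, Map2 had no named 3′UTR there, and Rbfox3 had 9 counts over the 12 mice of the mRNA-seq. Markers of newborn and dividing cells were uneven as well. Dcx, Prox1 and Top2a were listed at 0 in all 8 RIP libraries and Eomes had 1 count in all. Sox4 (916 counts over the 8), Sox11 (577), Calb2 (436), Sox2 (234), Neurod1 (119) and Mki67 (78) were counted in every RIP library. Prox1 had 17210 counts over the 12 mice of the mRNA-seq, so that its 0 in the RIP-seq does not show that the transcript was absent.

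The 4 genes differ in what of their 3′UTR could be counted. In NCBIM37 (mm9) the 3′UTR of Scrt1 (ENSMUST00000096365) lies at chr15:76346633-76349171 on the minus strand and is 2539 bases long. It shares 1890 bases with the 3′UTR of another annotated transcript of Scrt1 itself, which was at 0 in all 8 RIP libraries. Reads in such shared bases were not counted: of 10646 3′UTRs wholly covered by others, 99.98% were at 0 in all 8. The counts of Scrt1 therefore come from 649 bases. The 3′UTR of Scrt2 (ENSMUST00000064061, chr2:151919601-151921538, plus strand, 1938 bases), of Insm1 (ENSMUST00000089257, chr2:146049568-146050752, plus strand, 1185 bases) and of Insm2 (ENSMUST00000051857, chr12:56701942-56703005, plus strand, 1064 bases) are shared with no other counted 3′UTR. The 2 families differ in base composition. The 3′UTR of Scrt1 has 62.1% G and C, more than 99.8% of 7153 measured 3′UTRs, and that of Scrt2 has 57.3%, more than 96.9% of them. Insm1 with 43.0% and Insm2 with 41.3% exceed only 43.5% and 35.1% of them.

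Some mature miRNAs are shown here from RefSeq (GRCm38.p6), with the seed in capitals. The first pair share 1 seed and are sequestered by the miR-125 sponge, and the other 4 have a seed match in at least 1 of the 4 genes.
miR-125a-5p: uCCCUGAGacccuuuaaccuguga
miR-125b-5p: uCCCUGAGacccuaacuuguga
miR-137-3p: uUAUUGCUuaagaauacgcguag
let-7a-5p: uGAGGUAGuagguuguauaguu
miR-128-3p: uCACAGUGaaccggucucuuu
miR-181a-5p: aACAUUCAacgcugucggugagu

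No 3′UTR of the 4 genes held CTCAGGG, the complement of the miR-125 seed. This heptamer is found in 23.6% of 1183 3′UTRs within 20% of the length of Scrt1, in 18.9% for the length of Scrt2, in 14.4% for that of Insm1 and in 14.3% for that of Insm2. Of 14 mature miRNAs with 13 seeds that were looked for, on the strand of the transcript only, miR-137 gave the most matches. The seeds of miR-124 and miR-292 were not among them and their matches were not analysed here. The miR-137 complement AGCAATA occurs 5 times in the 3′UTR of Scrt1, and 4 of the 5 lie near its start within the bases that could be counted. Of the 3′UTRs of like length 16.1% hold the heptamer at least once, and among all 7153 Scrt1 is the only one with 5 or more. The 5 sites of Scrt1 and the 1 site of Scrt2 are printed 5′ to 3′ with 15 bases before and 1 base after the match, which is in capitals.
Scrt1, chr15:76349131-76349137: gccaggtcggctctcAGCAATAc
Scrt1, chr15:76349059-76349065: cgggcccctcctcacAGCAATAg
Scrt1, chr15:76348994-76349000: ttgccagccccttcaAGCAATAg
Scrt1, chr15:76348920-76348926: cccaggctttctcccAGCAATAg
Scrt1, chr15:76347907-76347913: cgatgcagactatagAGCAATAa
Scrt2, chr2:151921394-151921400: ataggaacttctgacAGCAATAa

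The other matches that concern Scrt2, Insm1 and Insm2 are single, apart from a pair for miR-181 in Insm2. Scrt2 holds CTACCTC of let-7, found in 12.9% of 3′UTRs of like length, and Insm1 holds CACTGTG of miR-128, found in 21.1%. Insm2 holds TGAATGT of miR-181 at 2 places. Of 3′UTRs of like length 13.3% hold it at least once and 1.31% hold at least 2. Scrt1 has 1 match each for miR-103 and miR-34a, both in the bases shared with the other transcript. A match describes the letters only, and no binding at a given site was measured.
Scrt2, let-7, chr2:151921049-151921055: gcctattggccaccaCTACCTCc
Insm1, miR-128, chr2:146050482-146050488: ccacttttgacatttCACTGTGc
Insm2, miR-181, chr12:56702546-56702552: ctttatttccttaacTGAATGTa
Insm2, miR-181, chr12:56702707-56702713: ctcgttcctcaagtgTGAATGTt

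The mRNA-seq ordered the 4 genes as Scrt1, Scrt2, Insm1 and Insm2. Per length, Scrt1 had 48.4 ± 10.4 RPKM (reads scaled to transcript length and library total, mean ± SD, n = 12 mice) with a range of 37.4 to 69.0, above 91.1% of the 19361 genes with a count. Scrt2 had 8.08 ± 0.883 RPKM and a range of 5.92 to 9.01. Insm1 had 4.61 ± 0.494 RPKM, from 3.94 to 5.65, and Insm2 had 0.148 ± 0.0838 RPKM, from 0.0468 to 0.316. The ranges of neighbours in this order did not overlap, so that each gene was separated from the next in every mouse. Each of the 4 symbols has a single RefSeq transcript (NM_130893, NM_001160410, NM_016889 and NM_020287), so that none of them loses reads to another transcript of its own.

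In the precipitate the order was the same in sham libraries and another with GFP-AGO2. In the sham libraries, Scrt1 had 37.8 and 26.1 CPM (counts scaled to the library total) per kilobase of countable 3′UTR, Scrt2 13.0 and 19.0, and Insm1 4.03 and 12.9. In the miR292sp libraries, Scrt2 stood highest with 253 and 213, while Scrt1 with 105 and 93.0 and Insm1 with 100.2 and 111 overlapped. Set against the mRNA of the 6 GFP mice, the ratio of Scrt2 was 2.08 in sham, beside a median of 2.08 over 4543 genes with 1 RefSeq transcript and at least 200 countable bases, and 30.3 in miR292sp, above 98.9% of these genes. That of Insm1 was 1.96 in sham and 24.3 in miR292sp, above 98.2%. Scrt1 had a ratio of 0.761 in sham, above 15.7% of genes, and 2.35 in miR292sp, above 51.7%, so that the most abundant mRNA of the 4 was near the middle of all genes in AGO2 binding per mRNA.

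**Figure D1:**
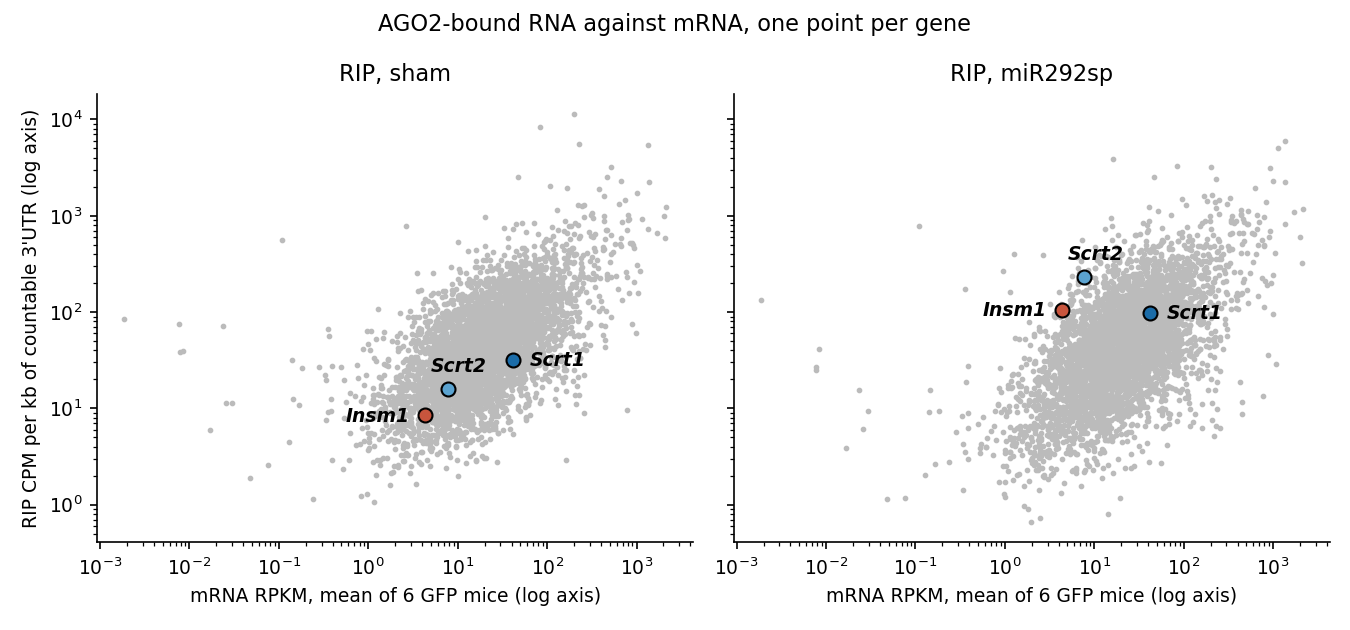
RIP level in CPM per kilobase of countable 3′UTR (mean of 2 libraries, log axis) against the mRNA level in RPKM (mean of 6 GFP mice, log axis), 1 point for each of 4543 genes, with sham on the left and miR292sp on the right. Scrt2 and Insm1 lie within the cloud in sham and at its upper edge in miR292sp, with ratios of 30.3 and 24.3, and Scrt1 stays within it.

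The relative enrichment in AGO2 binding, the mean of the miR292sp libraries over that of sham after division by a set of reference genes around Gapdh, placed Scrt2 8th and Insm1 20th of 8203 3′UTRs with at least 10 counts in every RIP library. Scrt2 had 2492 and 2064 raw counts in miR292sp and 74 and 89 in sham, and its enrichment was 39.8-fold. Insm1 had 602 and 655 in miR292sp and 14 and 37 in sham, and its enrichment was 33.5-fold. Scrt1 had 345 and 301 in miR292sp and 72 and 41 in sham, which gave 8.49-fold and rank 596. The libraries of the 2 groups did not overlap for any of the 3 genes. All 3 were above the 4-fold limit of the study, as were 27.2% of all 3′UTRs tested, whose median was 2.39-fold. Since these values chose the genes, nothing is read from the count.

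These folds depend on the scaling and on the sham libraries. The reference genes held 1.92% to 2.01% of the counts in sham and 0.697% to 0.745% in miR292sp. With TMM, which centres the bulk of the 3′UTRs, the enrichment was 15.5-fold for Scrt2, 13.4-fold for Insm1 and 3.25-fold for Scrt1, which is then under the limit, and the median of all 3′UTRs was 0.926. Without sham replicate 7 the value for Scrt1 was 13.6-fold, and without sham replicate 8 it was 5.26-fold for Scrt1 and 52.6-fold for Insm1. The 8 astrocyte markers together held 6.26% to 6.30% of the counts in sham, at most 1.57% in miR292sp, 4.36% to 4.41% in miR124sp and 3.47% to 3.71% in miR125sp, most of them from Slc1a2, a glial glutamate transporter. Their part in the enrichment of the 3 genes was not tested.

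Insm2 was hardly detected in the precipitate. Its 19 counts over the 8 libraries fell into 3 of them, with 15 in miR124sp replicate 4, 3 in miR292sp replicate 5 and 1 in miR125sp replicate 2. It was at 0 in the other 5, both sham libraries included, and a count of 0 allows up to 3 counts there, which is 0.601 to 1.24 CPM and covers counting error only. It did not pass the filter and has no enrichment or test in the RIP-seq.

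**Figure D2:**
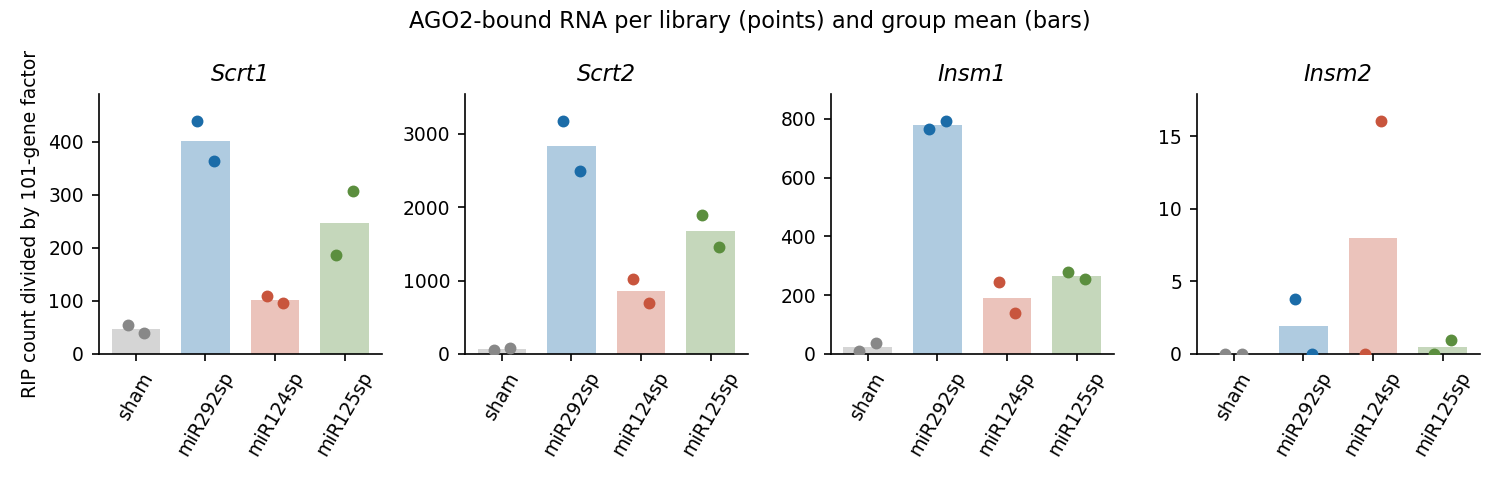
RIP counts divided by the reference-gene factor for each library (points) and the mean of each group of 2 (bars), 1 panel per gene with its own axis from 0. Scrt1, Scrt2 and Insm1 are lowest in both sham libraries and highest in both miR292sp libraries, and Insm2 is at or near 0 in all but 1 miR124sp library.

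The sponge libraries ask how the binding of these transcripts changes when miR-124 or miR-125 is sequestered. Scrt2 and Insm1 kept high ranks in the enrichment over the same sham libraries. Scrt2 was 12.1-fold enriched with miR124sp (5th of 8203) and 23.6-fold with miR125sp (1st). Insm1 was 8.27-fold enriched with miR124sp (26th) and 11.5-fold with miR125sp (33rd). Scrt1 was 2.17-fold enriched with miR124sp (rank 1269) and 5.23-fold with miR125sp (rank 266), so that it was under the 4-fold limit with the miR-124 sponge alone. Most 3′UTRs above this limit with miR292sp fell under it: of 8203, 2230 were above it with miR292sp, 230 with miR124sp and 507 with miR125sp. The medians of all 3′UTRs were 1.29-fold and 1.47-fold. These ratios share the sham libraries with the values that chose the genes.

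With miR124sp against miR292sp, all 3 genes had lower values and none passed the test. After TMM scaling, Scrt2 had 361 and 223 CPM in miR124sp and 516 and 425 in miR292sp. Insm1 had 86.3 and 44.2 CPM in miR124sp against 125 and 135. Scrt1 had 38.4 and 30.6 CPM against 71.4 and 61.9. The groups did not overlap for any of the 3 genes. The log2 fold change was -0.69 ± 0.24 for Scrt2 (SE, edgeR adjusted p = 0.0807), -0.99 ± 0.38 for Insm1 (adjusted p = 0.108) and -0.95 ± 0.37 for Scrt1 (adjusted p = 0.111). So 0 of 3 passed an adjusted p of 0.05 in edgeR, as 8.56% of all 3′UTRs did, while all 3 had an unadjusted p below 0.05 and DESeq2 called all 3. Their percentiles among the 8203 fold changes, from the lowest, were 11.2% for Scrt2, 2.97% for Insm1 and 3.57% for Scrt1. With the reference-gene scaling the median of all 3′UTRs moved to -0.97 on the log2 scale, and the values were -1.71, -2.02 and -1.97, all called. The sizes rest on single miR124sp libraries: after TMM scaling and without replicate 4, Scrt2 had -0.38 (adjusted p = 0.419) and Insm1 -0.59 (adjusted p = 0.477), and without replicate 3 they had -1.08 (adjusted p = 0.0357) and -1.56 (adjusted p = 0.0736).

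With miR125sp against miR292sp, after TMM scaling, only Insm1 had lower values in both libraries. A difference between the genes was not tested. Scrt2 had 532 and 425 CPM in miR125sp, which overlapped with miR292sp, and a log2 fold change of 0.03 with a 95% interval of -0.47 to 0.52 (edgeR adjusted p = 0.965). Scrt1 had 52.4 and 89.9 CPM, on both sides of the miR292sp values, and 0.09 with an interval of -0.66 to 0.85 (adjusted p = 0.922). Insm1 had 78.1 and 74.4 CPM, below both miR292sp libraries, and -0.77 with an interval of -1.56 to 0.03 (adjusted p = 0.310). No gene of the 3 passed the test in edgeR, at an unadjusted p of 0.05 or in DESeq2, beside 1.41% of all 3′UTRs in edgeR. The intervals of Scrt1 and Scrt2 leave room for changes in either direction. With the reference-gene scaling, which moved the median of all 3′UTRs to -0.75, the direction of Scrt2 turned to -0.76 (adjusted p = 0.0162) and that of Scrt1 to -0.70 (adjusted p = 0.122), and Insm1 was called at -1.55 (adjusted p = 0.00451). Both contrasts share the miR292sp libraries with the values that chose the genes.

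Only the contrast of both sponges uses none of the libraries of the enrichment. Scrt1 was lower with miR124sp than with miR125sp by a log2 fold change of -1.04 ± 0.37 (edgeR adjusted p = 0.862), and Scrt2 by -0.71 ± 0.24 (adjusted p = 0.862). The 2 miR124sp libraries lay below both miR125sp libraries for these 2 genes. For Insm1 the libraries overlapped, with -0.22 ± 0.38 (adjusted p = 0.993). None of the 3 was called by edgeR or DESeq2, 2 had an unadjusted p below 0.05, and 1 of 8203 3′UTRs, or 0.0122%, passed the adjusted threshold.

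The mRNA-seq shares no library with the enrichment. With miR124sp all 4 genes had log2 fold changes above 0, and Scrt1 alone was called. In the miR-124 experiment, Scrt1 had 277, 268 and 195 CPM in miR124sp mice and 159, 214 and 149.9 CPM in GFP mice. The 2 groups overlapped by 1 mouse, the means were 246 ± 44.7 and 174 ± 34.9 CPM (SD, n = 3), and the log2 fold change was 0.52 ± 0.16 (SE, edgeR adjusted p = 0.0396). Scrt2 had 29.9, 30.0 and 26.8 CPM against 20.1, 26.6 and 24.7, with 0.31 ± 0.11 (adjusted p = 0.0718). Insm1 had 14.1, 14.5 and 17.1 CPM against 12.8, 12.9 and 11.9, with 0.29 ± 0.11 (adjusted p = 0.0803). For both genes each miR124sp mouse lay above each GFP mouse, by a small margin. Insm2 had 11, 14 and 9 raw counts in miR124sp mice and 16, 4 and 7 in GFP mice, which was 0.653, 0.979 and 0.686 CPM against 0.558, 0.201 and 0.393. Its log2 fold change of 0.95 ± 0.42 did not pass (adjusted p = 0.131). Thus 1 of 4 genes was called, in a comparison in which 23.3% of all genes were, and all 4 had an unadjusted p below 0.05.

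The call of Scrt1 was lost on leaving out GFP replicate 15 or 8 or miR124sp replicate 14 or 2, with values from 0.42 to 0.46 and adjusted p from 0.123 to 0.158. The headers of 8 mRNA libraries carry a mark that neither the labels nor the study's methods explain, and it is missing for miR124sp replicates 2 and 9. With the mark as a covariate the value was 0.69 (adjusted p = 0.0604). Only miR124sp replicate 14 carries it as the GFP mice of that experiment do, and it had 277 CPM against 149.9 to 214. Markers of other cells moved in the same comparison: 5 of 7 oligodendrocyte and myelin genes measured were higher, with a summed share of 0.0786% to 0.104% against 0.0558% to 0.0609% of counts, 5 of 8 astrocyte genes were lower (0.269% to 0.292% against 0.345% to 0.405%) and 5 of 7 microglial genes were lower (0.0470% to 0.0494% against 0.0541% to 0.0612%). Itgam is listed at 0 in all mice. Many RefSeq rows of symbols with several transcripts are at 0 too. Of 9 neuronal genes measured, 2 were called higher and 1 lower, and the summed shares overlapped (0.457% to 0.524% against 0.454% to 0.505%). The part of all these markers in the values of the 4 genes was not tested, and in whole tissue fewer cells of a type and less RNA per cell cannot be told apart.

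In the miR-125 experiment, Scrt1 had 192, 189.5 and 197 CPM in miR125sp mice and 168, 168 and 152 CPM in GFP mice. The groups were separate and narrow, the log2 fold change was 0.24 ± 0.05, and the adjusted p was 0.104 in edgeR. DESeq2 called it at 0.24 (adjusted p = 0.0111). All 3 miR125sp mice carry the header mark and 1 of the 3 GFP mice does, and with the mark as a covariate the value was 0.35 (edgeR adjusted p = 0.0287). Markers of cell types were separate between the same groups: the summed share of neuronal markers was 0.510% to 0.529% against 0.484% to 0.486% of counts, that of astrocyte markers 0.249% to 0.257% against 0.280% to 0.308% and that of microglial markers 0.0439% to 0.0456% against 0.0489% to 0.0518%. Of these lists 1 of 9 neuronal genes was called higher (Snap25), and 1 of 8 astrocyte genes (Aqp4) and 1 of 7 microglial genes (C1qa) lower. Their part in the value of Scrt1 was not tested. Scrt2, with 28.5 ± 2.01 CPM in miR125sp and 28.5 ± 2.09 CPM in GFP mice (SD, n = 3), had -0.02 with a 95% interval of -0.20 to 0.16. Insm1, with 14.4 ± 1.58 and 13.6 ± 1.03 CPM, had 0.05 with an interval of -0.19 to 0.29. Insm2, with 13, 2 and 6 counts against 4, 1 and 6, did not pass the filter on low counts. Of the 3 genes tested 0 were called by edgeR, 1 had an unadjusted p below 0.05, and 0.206% of all genes were called.

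**Figure D3:**
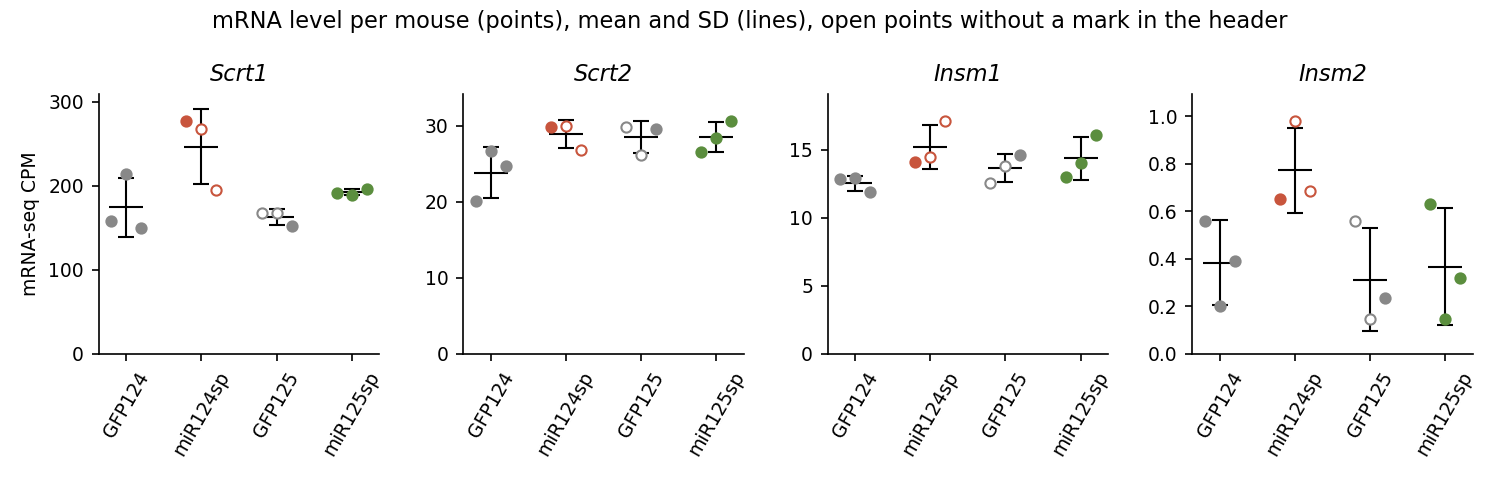
mRNA level in CPM for each of the 12 mice (points, open where the header has no mark), with the mean and SD of each group of 3 as black lines, 1 panel per gene with its own axis from 0, where GFP124 and GFP125 are the GFP mice of the miR-124 and miR-125 experiments. The means of Scrt1 are higher with either sponge, with 1 miR124sp mouse at 195 CPM below the highest GFP mouse at 214 CPM, and Scrt2 and Insm1 differ little between miR125sp and GFP.

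An interaction term, fitted to all 12 mice, compared the effects of the sponges on mRNA. The difference was 0.27 ± 0.19 for Scrt1 (log2, SE, edgeR adjusted p = 0.364), 0.31 ± 0.14 for Scrt2 (adjusted p = 0.165), 0.23 ± 0.15 for Insm1 (adjusted p = 0.354) and 0.48 ± 0.80 for Insm2 (adjusted p = 0.741). None of the 4 was called by edgeR, beside 14.5% of all genes, and 1 had an unadjusted p below 0.05. DESeq2 called none of Scrt1, Scrt2 and Insm1 and gave no adjusted p for Insm2. The call of Scrt1 with one sponge and not the other therefore does not show a difference between them.

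**Figure D4:**
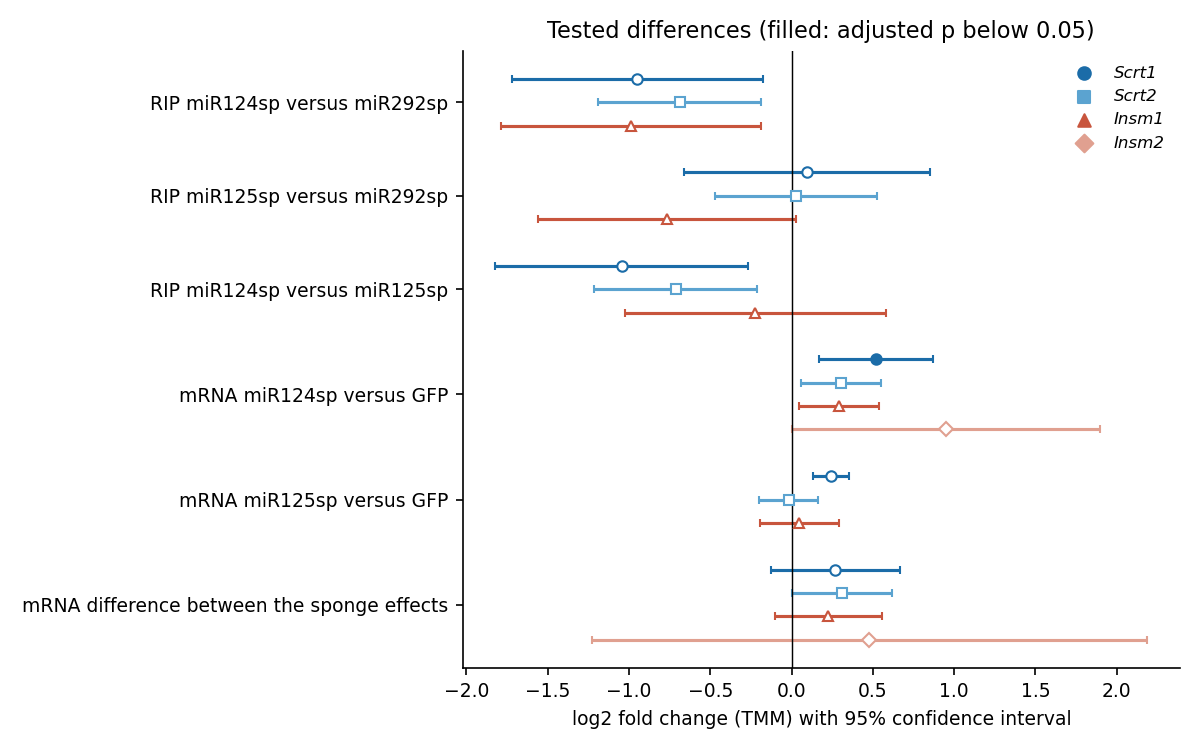
Log2 fold changes after TMM scaling (points) with 95% confidence intervals (lines) for the 3 RIP and the 3 mRNA comparisons, filled where the adjusted p was below 0.05. Scrt1 in the miR-124 mRNA experiment, at 0.52, is the one filled point, and all points of miR124sp lie below 0 in the RIP comparisons and above 0 in the mRNA comparison with GFP.

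Genes that work with these repressors were followed as 3 lists. The SNAG zinc finger list of 12 genes, the 4 members included, had no measured gene in the RIP-seq apart from Scrt1, Scrt2 and Insm1. In the mRNA-seq 7 of the 12 were measured in the miR-124 experiment, and Scrt1 was the only one called, beside 23.3% of all genes. Snai1, a repressor of epithelial genes, had a log2 fold change of 0.67 (edgeR adjusted p = 0.137) and its relative Snai2 had -0.39 (adjusted p = 0.317). Since 4 of the 7 are the members themselves, the median of the list is not given. With miR125sp 0 of 6 were called, beside 0.206% of all genes.

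Of 13 genes of the LSD1-CoREST complex, 6 were measured in the RIP-seq. Rcor1, the CoREST scaffold, was 9.16-fold and Phf21a, a histone reader of the complex, 5.56-fold enriched in AGO2 binding, above the 4-fold limit, and the median of the 6 was 2.21-fold beside 2.39-fold over all 3′UTRs. With miR124sp against miR292sp 1 of 6 was called, beside 8.56% of all 3′UTRs, namely Rreb1, at 1.68 (edgeR adjusted p = 0.00890), and Rcor1 had -0.75 (adjusted p = 0.179). Rreb1 was not enriched in AGO2 binding: its miR292sp level was 0.612-fold that of sham. In the mRNA-seq of the miR-124 experiment 2 of 11 were called, a share below the 23.3% of all genes, both upward: Rcor1 at 0.36 (adjusted p = 0.0153) and its paralogue Rcor2 at 0.31 (adjusted p = 0.0362). The median of the 11 was 0.10. With miR125sp 0 of 6 were called in the RIP-seq, beside 1.41% of all 3′UTRs, and 0 of 11 in the mRNA-seq, beside 0.206% of all genes.

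Of 13 bHLH and Id factors, which bind or titrate binding to E-boxes, 6 were measured in the RIP-seq. The E-protein gene Tcf4 with 6.59-fold and the neuronal differentiation factors Neurod6 with 6.21-fold and Neurod2 with 5.47-fold were above the 4-fold limit. After TMM scaling, 2 of 6 were called with miR124sp against miR292sp, beside 8.56% of all 3′UTRs, Neurod6 at -0.71 (edgeR adjusted p = 0.0399) and Neurod2 at -0.66 (adjusted p = 0.0173). Neurod6 alone was called with miR125sp, at -0.88 (adjusted p = 0.0382), beside 1.41% of all 3′UTRs. In the mRNA-seq of the miR-124 experiment, 1 of 10 was called higher and 1 lower, beside 23.3% of all genes called in either direction. The lower one was Id4, an inhibitor of bHLH factors, at -0.38 (edgeR adjusted p = 0.0436). With miR125sp 0 of 10 were called in the mRNA-seq, beside 0.206% of all genes. The interaction called 0 of 7, 0 of 11 and 0 of 10 genes of the 3 lists, beside 14.5% of all genes.

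The 3 genes varied together over the 8 RIP libraries. Pearson's r of the log2 normalised counts was 0.98 between Scrt2 and Insm1, 0.91 between Scrt1 and Scrt2 and 0.89 between Scrt1 and Insm1, as a description of points that share libraries, scaling and the step from sham to GFP-AGO2. The 3′UTRs most like Scrt2 were those of Stc1, Ankrd52 and Irs1 (r = 0.995, 0.994 and 0.994), which were 20.8-fold, 22.9-fold and 35.3-fold enriched. Those most like Insm1 were Elmo2, Naa15 and Ppp1r3d (0.995 each), and those most like Scrt1 were Micall1, C77080 and Slc5a5 (0.99 each). Over the 12 mice of the mRNA-seq the same pairs had lower values, with 0.47 between Scrt1 and Scrt2, 0.42 between Scrt2 and Insm1 and 0.32 between Scrt1 and Insm1. There the genes most like Scrt1 were Cdk5r2, Cadm4 and Hcn2 (0.96, 0.95 and 0.94), those most like Scrt2 were Rnf220, Hs6st1 and Zdhhc3 (0.93, 0.92 and 0.90), those most like Insm1 were Vps8, Sh3kbp1 and Lrrc47 (0.88, 0.80 and 0.80), and those most like Insm2, at its few counts, were Akr1c18, Rspo1 and Enpp6 (0.93, 0.89 and 0.88).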

How the data were processed

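For both assays the authors deposited whole-number counts that were not normalised, per annotated 3′UTR for the RIP-seq (50-base reads mapped to mm9) and per RefSeq transcript for the mRNA-seq. The submitters' processing notes name STAR, edgeR and mm10. The counting program is not named there or in the study's methods. Transcripts were named with GENCODE M1 on NCBIM37 (98.0% of 38158 3′UTRs) and RefSeq (98.7% of 32850 rows, the rest holding 0.849% of counts), and mRNA counts were summed per symbol. Of RefSeq rows of symbols with several transcripts 58.0% were at 0 in all mice, against 17.5% with 1, so that levels of the former are uncertain.

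Enrichment followed the study: each library was scaled by its mean over Gapdh and the 50 next genes above and below it by raw ratio, for 3′UTRs with at least 10 counts in every RIP library. Differences were tested with edgeR 4.0.16 (quasi-likelihood, TMM, Benjamini-Hochberg over all features, adjusted p below 0.05): 8 RIP libraries in 1 fit, each mRNA experiment on its own 6 mice after filterByExpr, and the interaction over 12 mice. The scripts were tested on simulated data. DESeq2 1.42.0, R 4.3.3 and Python 3.11.15 were used. Alternatives were another scaling, DESeq2, other filters, the libraries of 1 comparison alone, the transcript with the most counts, the header mark as a covariate and leaving out each library. RIP replicates are separate pools and mRNA replicates are single mice. Total counts limit the precision, and reads carry no molecular identifiers. The genes and lists were chosen with earlier results of these data known. Named are the 4 genes, at most 4 genes of each list with the largest change, and the 3 features most correlated with each gene. Some genes of the lists are not reported here.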

Additional observations from a re-analysis of the deposited data

How the results depend on the processing

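Of 3 genes above 4-fold enrichment, 2 were left with TMM and with total counts, where Scrt1 had 3.25-fold and 3.09-fold, and 3 with a smaller reference set, with no filter and without any 1 library. The number called with miR124sp against miR292sp in the RIP-seq rose from 0 to 3 with the reference-gene scaling, with DESeq2, with no filter on low counts and with the 4 libraries of the comparison alone, and was 0 to 1 on leaving out a library (Scrt2 at -1.08, adjusted p = 0.0357, without miR124sp replicate 3, and at -0.38, adjusted p = 0.419, without replicate 4). With miR125sp it rose from 0 to 2 with the reference-gene scaling, where Scrt2 reversed to -0.76, and to 1 with the 4 libraries alone, Insm1 at -0.76 (adjusted p = 0.0478), and it was 0 to 0 on leaving out a library. Between the sponges it was 0 in each alternative, 0 to 0 without a library. In the mRNA-seq the number called with miR124sp fell from 1 to 0 with the header mark as a covariate, rose to 2 with 12 mice in 1 fit (Scrt2 at 0.29, adjusted p = 0.0363) and was 0 to 2 on leaving out a mouse. With miR125sp it rose from 0 to 1 with DESeq2, with no filter and with the covariate, and was 0 to 1 on leaving out a mouse (Scrt1 at 0.28, adjusted p = 0.0461, without GFP replicate 15). The interaction gave 0 in every alternative. For single genes, 65 of 81 alternatives in the RIP-seq and 130 of 141 in the mRNA-seq stayed on their side of the threshold, and no called value changed sign apart from Scrt2 above. In the mRNA-seq DESeq2 gave no adjusted p for Insm2 with miR124sp and in the interaction, or for Scrt2 and Insm1 with miR125sp. These were counted as staying. The cause of these changes was not tested. No paired analysis was made because neither the labels nor the study's methods give pairs of samples. Insm2 is limited by its counts, with 19 over 8 RIP libraries, and the RIP-seq by 2 libraries a group, with sham counts of Insm1 at 14 and 37.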
